A study of Homo sapiens with 18 samples.

Results

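The comparison described here set the response of one cell line to 1000 nM of a CDK7 inhibitor against the response of another. It is the change from DMSO to 1000 nM in the libraries labelled XG1 minus the same change in AMO1, computed for each gene on log2(FPKM + 1). It used 12 of the 18 libraries of the series, 3 in each of 4 groups, and was made for 12204 of the 26249 genes in the tables, those whose average reached 1 FPKM in some group of the series. Of these, 8949 had a mean of 1 FPKM or more in DMSO in both lines and are described apart, because a gene near the lowest values in one line has little room to fall there. A difference below 0 means that the gene moved further up, or less far down, in AMO1 than in the libraries labelled XG1.

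Both labels name human multiple myeloma lines, and the series title speaks of resistant lines. The 4 groups were cells labelled XG1 or AMO1, each treated over 6 h, either by the solvent DMSO or by 1000 nM YKL-5-124. YKL-5-124 is a covalent inhibitor of CDK7. The other 6 libraries, 3 of each line at 100 nM, entered the fit that estimates the spread between libraries. Each label names 1 culture line and no genetic change. The labels do not say whether replicates were separate cultures, so each p describes no more than the spread among these libraries, which may be technical. Values come from a 3′ end method and are taken as FPKM, a unit that scales reads to gene length and library size. Their read depth is unknown.

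CDK7 is the kinase of the general transcription factor TFIIH. It phosphorylates RNA polymerase II at the start of genes and activates the kinases that drive the cell cycle. Cells that sense damage or loss of transcription can stabilise p53, which switches on genes for arrest and cell death, while shortage of amino acids acts through the factor ATF4. The transcripts of many of these stress genes are short-lived, so their level follows recent synthesis closely.

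The labels and the libraries did not match in 1 respect that touches all results. Of 10 plasma cell markers in the tables, 9 reached 10 FPKM in every AMO1 library and 1 did so in every library labelled XG1, where CD38, SLAMF7, PRDM1, IRF4 and POU2AF1 were under 1 FPKM in all 6. The summed plasma cell markers lay between 44.4 and 75.9 FPKM there and between 4808 and 7249 FPKM in AMO1. Of 12 erythroid markers, 9 reached 10 FPKM in every library labelled XG1 (sum 3572 to 4278 FPKM) and 0 in AMO1 (sum 3.74 to 14.1 FPKM). T cell and myeloid markers summed to 21.6 to 38.7 FPKM in the libraries labelled XG1 and 3.23 to 5.62 FPKM in AMO1, and stromal and epithelial markers to 23.5 to 58.9 and 1.54 to 3.16 FPKM. The name XG1 is used below only as the label of these libraries.

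2 libraries stood apart within their groups. AMO1 DMSO replicate 3 held the lowest value of its group for 73.1% of the 8949 genes, and XG1 1000 nM replicate 2 for 70.3%. The 12 libraries detected 9284 to 10571 genes at or above 1 FPKM, and those of a group correlated at 0.955 to 0.972 across genes. The median of 44 spiked-in control RNAs deviated by -0.06 to 0.07 log2 in the 12 libraries, so scaling to them can move the values little. Summed values were 741443 to 957143 in the libraries labelled XG1 and 1462900 to 1896260 in AMO1, and the lowest value of each library lay above 0. Whether the deposited values had already been put on a spike-in scale was not tested. For several counts and gene lists below, values without 1 of these libraries are also given.

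For most genes the change had the same sign in both lines. Among the 8949 genes the median change was -0.24 log2 in the libraries labelled XG1 and -0.24 in AMO1. The change had the same sign in both lines for 6971 genes (77.9%), and the changes correlated at 0.50 across genes, which share a library scale within each line and are not independent replicates. In limma with Benjamini-Hochberg adjustment over the 12204 genes, 128 rose (1.43%) and 1660 fell (18.5%) in the libraries labelled XG1, and 135 rose (1.51%) and 1596 fell (17.8%) in AMO1. Falls called in both lines numbered 924, and rises 45. The treated and DMSO libraries did not overlap for 36.2% of the 8949 genes in the libraries labelled XG1 and for 37.5% in AMO1. The main rule for naming genes below asked for this in at least 1 line, so lack of overlap there is partly built in. For 6738 of the genes (75.3%) the 95% interval of the difference lay within 1 log2 of 0. The median standard error was 0.28 log2, which limits what could be called.

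**Figure D1:**
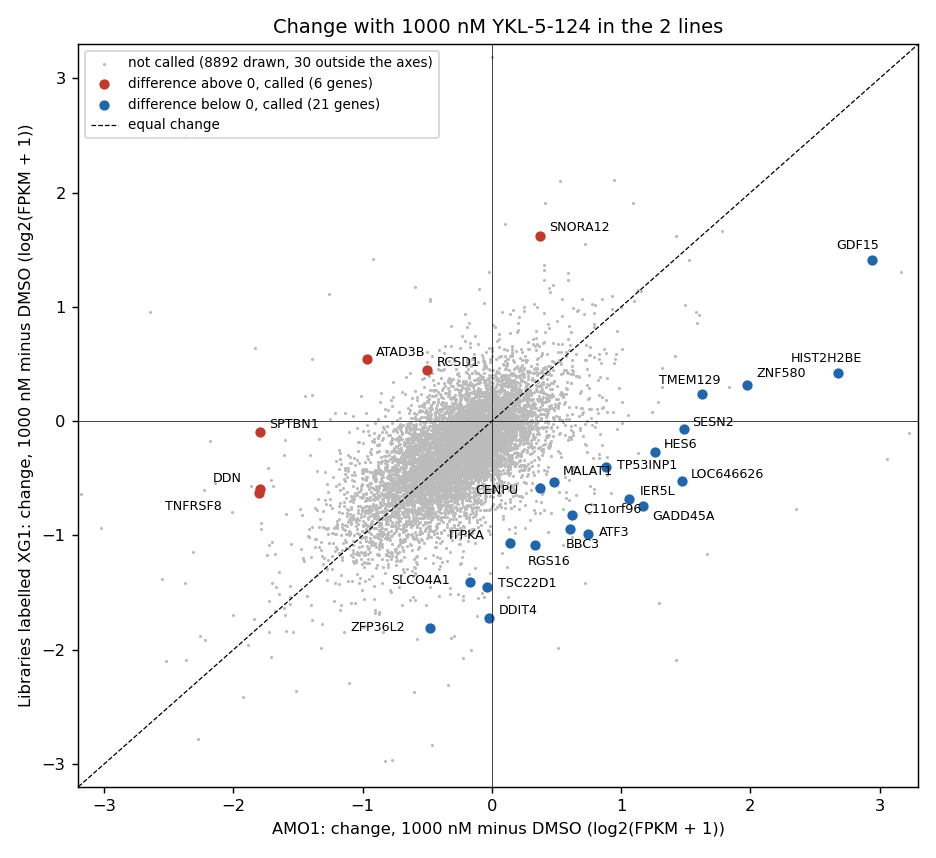
Change from DMSO to 1000 nM YKL-5-124 in AMO1 (x axis) and in the libraries labelled XG1 (y axis), both in log2(FPKM + 1), 1 point for each of the 8949 genes at 1 FPKM or more in DMSO of both lines. Most points lie along the line of equal change, the 27 called genes lie off it, 21 below and 6 above, and 30 genes that were not called lie outside the axes.

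The difference itself passed an adjusted p of 0.05 for 27 of the 8949 genes (0.302%), 6 with a difference above 0 (0.067%) and 21 below 0 (0.235%). Over all 12204 genes it passed for 83 (0.68%), 40 above 0 (0.328%) and 43 below 0 (0.352%). Among the 8949, 609 genes passed an unadjusted p of 0.05 (6.81%), 273 above (3.05%) and 336 below 0 (3.75%). Of the 21 genes below 0, 8 rose in AMO1 and were not called in the libraries labelled XG1, 8 fell in the libraries labelled XG1 and were not called in AMO1, 4 were called in opposite directions, and 1 rose in both lines by different amounts. Of the 6 above 0, 2 were called in opposite directions, 2 fell in both lines but further in AMO1, 1 fell in AMO1 and was not called in the other line, and 1 rose in the libraries labelled XG1 and was not called in AMO1. The counts depended on scaling. After median centring the 8949 genes held 26 calls above and 64 below 0, after quantile normalization 43 and 67, and without AMO1 DMSO replicate 3, 42 and 24. Without XG1 1000 nM replicate 2 there were 14 and 17. None of the 83 genes changed sign in any alternative, and 14 of the 27 kept their call in all of them.

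**Figure D2:**
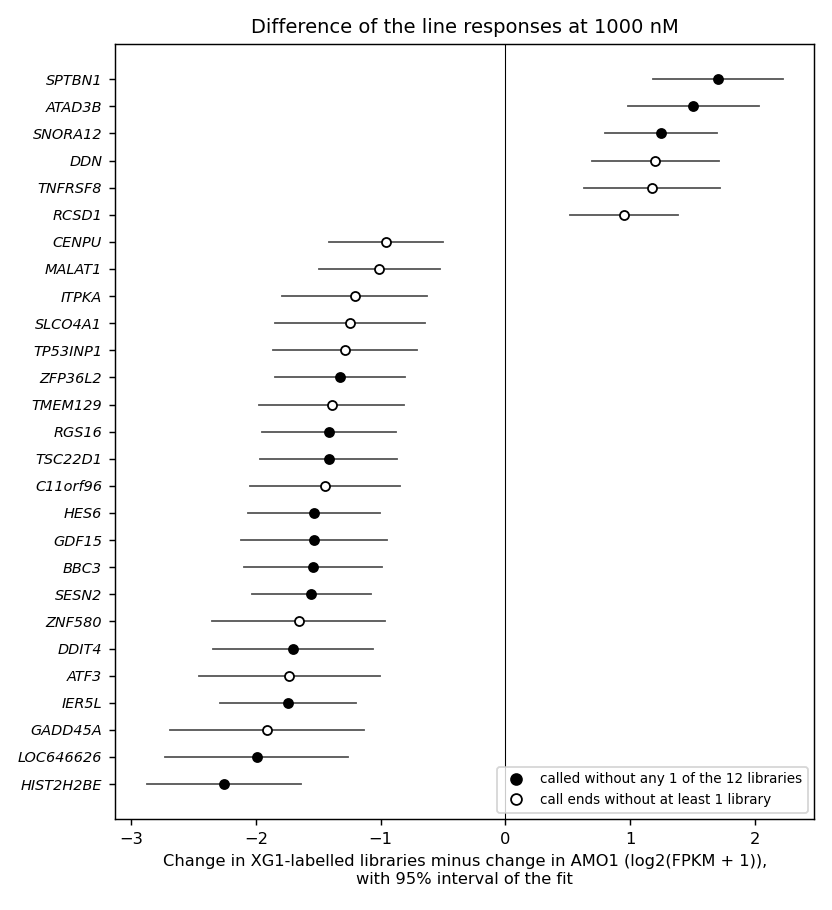
Difference of the line responses (change in libraries labelled XG1 minus change in AMO1, log2(FPKM + 1)) with its 95% interval for the 27 called genes at 1 FPKM or more in DMSO of both lines. Filled points are genes called without any 1 of the 12 libraries, from HIST2H2BE at -2.26 to SPTBN1 at 1.70, and open points lost the call without at least 1 library.

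Several of the called genes with a difference below 0 were p53 targets and related stress genes. SESN2, BBC3 and GDF15 are shown with ATF3 by the 250 bases upstream of their start in RefSeq (GRCh38.p14). These 4 are some of the stress genes with the pattern described next, not all of them. The deposited values were made on hg19 and their tables carry no coordinates. Capitals mark TGATGNAA, the core of the C/EBP-ATF response element, in the ATF3 window and CACGTG, an E-box, in the BBC3 window. Windows run 5′ to 3′ on the gene's strand at chr1:28259268-28259517 (plus strand, SESN2), chr19:18385908-18386157 (plus, GDF15), chr19:47232668-47232917 (minus, BBC3) and chr1:212565157-212565406 (plus, ATF3, the upstream of its 2 starts).
SESN2: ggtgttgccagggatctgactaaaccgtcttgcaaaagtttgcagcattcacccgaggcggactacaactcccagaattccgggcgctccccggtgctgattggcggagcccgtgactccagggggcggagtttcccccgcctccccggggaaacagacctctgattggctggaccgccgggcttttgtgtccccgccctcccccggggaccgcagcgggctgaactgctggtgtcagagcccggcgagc
GDF15: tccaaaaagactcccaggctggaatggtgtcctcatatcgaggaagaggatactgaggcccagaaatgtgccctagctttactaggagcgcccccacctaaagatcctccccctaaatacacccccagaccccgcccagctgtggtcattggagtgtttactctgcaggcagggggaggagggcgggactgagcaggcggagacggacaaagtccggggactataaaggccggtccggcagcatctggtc
BBC3: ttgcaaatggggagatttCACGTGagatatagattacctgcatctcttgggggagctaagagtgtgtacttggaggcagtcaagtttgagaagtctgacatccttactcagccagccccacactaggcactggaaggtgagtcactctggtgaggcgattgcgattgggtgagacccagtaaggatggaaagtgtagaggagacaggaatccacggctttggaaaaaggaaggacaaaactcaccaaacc
ATF3: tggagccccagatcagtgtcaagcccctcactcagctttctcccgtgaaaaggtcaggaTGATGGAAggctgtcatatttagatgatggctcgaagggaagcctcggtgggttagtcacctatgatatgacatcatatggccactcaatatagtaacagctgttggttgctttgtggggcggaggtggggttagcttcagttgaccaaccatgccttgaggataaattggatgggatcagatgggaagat
The motifs, chosen after the values were seen, were searched on both strands. CACGTG was in 6.345% of 35116 RefSeq windows of this length, TGATGNAA in 3.144% and the p53 consensus decamer, which overlaps neither, in 5.573%. Of the 27 called genes 16 had a RefSeq window, 25 windows in all. CACGTG was in 1 window each of 2 of these genes (BBC3 and TSC22D1). TGATGNAA was in 1 window of 1 gene (ATF3) and the p53 decamer in 1 window of 1 gene (TSC22D1). The percentages above count windows, of which some genes have several, so they stand beside the 25 windows and not the 16 genes. The SESN2 and GDF15 windows held none of these motifs. Neither did 2 windows that are not printed, the other ATF3 window (chr1:212614768-212615017) and that of DDIT4, a called stress gene described below.

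SESN2 encodes a sestrin, a leucine sensor that restrains the growth kinase complex mTORC1 and is induced by p53 and by ATF4. In AMO1 it was at 36.5, 40.3 and 24.7 FPKM in the 3 DMSO libraries and at 95.5, 92.2 and 95.4 FPKM at 1000 nM. In the libraries labelled XG1 it was at 15.5, 11.9 and 15.5 FPKM in DMSO and at 14.2, 13.2 and 13.01 FPKM at 1000 nM. The AMO1 groups did not overlap, while the XG1 groups did. The change was 1.48 log2 in AMO1 (limma adjusted p = 7.42e-06) and -0.07 in the libraries labelled XG1 (adjusted p = 0.829), a difference of -1.56 ± 0.23 (SE, n = 3 libraries per group, limma adjusted p = 0.0014).

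GADD45A, a growth arrest gene induced by DNA damage, showed the widest gap among the p53 targets. AMO1 libraries held 11.9, 14.4 and 11.6 FPKM in DMSO and 29.1, 30.9 and 28.8 FPKM at 1000 nM. Those labelled XG1 held 29.9, 29.8 and 20.2 FPKM in DMSO and 17.7, 8.37 and 23.7 FPKM at 1000 nM. It rose in AMO1, by 1.17 log2, with no overlap. In the libraries labelled XG1 the groups overlapped and the change of -0.74 was not called (adjusted p = 0.0577). The difference was -1.91 ± 0.37 log2 (limma adjusted p = 0.0171) and was called in 9 of the 12 fits that left out 1 library (highest adjusted p = 0.0608), and the call ended with no filter on low genes.

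BBC3 encodes PUMA, a BCL2 family protein that triggers apoptosis. It was one of the 6 genes called in opposite directions. In AMO1 it went from 188, 187 and 99.1 FPKM in DMSO to 221, 236 and 234 FPKM at 1000 nM, and in the libraries labelled XG1 from 46.1, 43.6 and 50.03 to 25.9, 22.7 and 22.9 FPKM. Neither pair of groups overlapped. In AMO1, where DMSO replicate 3 was far below the other DMSO libraries, the rise was 0.60 log2 (limma adjusted p = 0.0317), and in the libraries labelled XG1 the fall was -0.94 (0.00191). The difference was -1.54 ± 0.26 log2 (limma adjusted p = 0.00598) and was called in every fit without 1 library, that one included.

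GDF15, a secreted stress cytokine of the TGF-beta family, rose in both lines and more steeply in AMO1. AMO1 libraries were at 36.7, 32.2 and 17.7 FPKM in DMSO and 202, 231 and 225 FPKM at 1000 nM. Libraries labelled XG1 were at 34.5, 42.3 and 41.3 FPKM in DMSO and 110.0, 90.2 and 119 FPKM at 1000 nM. All treated libraries of both lines lay above all DMSO libraries. The changes were 2.94 and 1.41 log2, and the difference was -1.53 ± 0.28 (limma adjusted p = 0.0101).

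TP53INP1, a p53-induced gene of cell death and autophagy, rose in AMO1 from 13.4, 18.04 and 12.03 FPKM to 27.4, 27.5 and 26.9 FPKM. The libraries labelled XG1 overlapped, at 3.21, 2.79 and 2.32 FPKM in DMSO and 2.74, 1.06 and 1.99 FPKM at 1000 nM. The difference was -1.29 ± 0.28 log2 (limma adjusted p = 0.0342). It was called in 6 of the 12 fits without 1 library, with a highest adjusted p of 0.096, and the call also ended with the replicate number as a block (0.0598), with only the 12 libraries, with only the 8949 genes tested, with no filter and with a pseudocount of 0.1 (0.119).

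**Figure D3:**
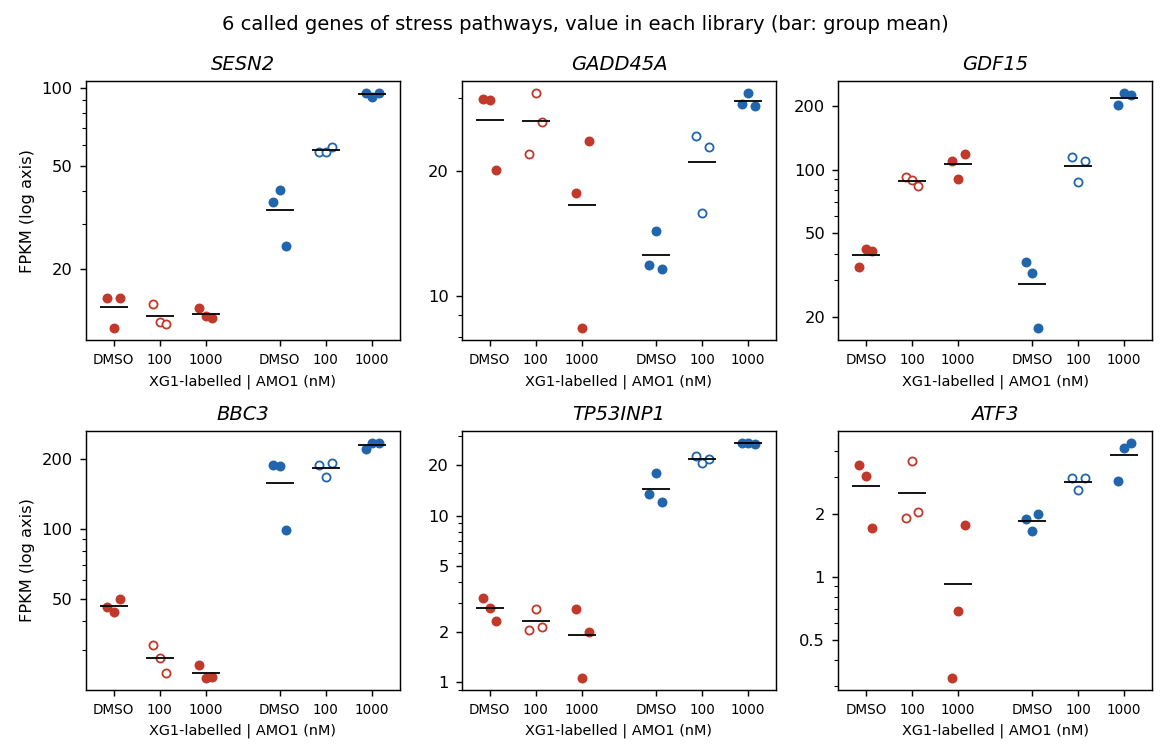
FPKM in each library (log axes, each panel with its own range) for 6 called stress genes in DMSO and at 100 and 1000 nM, with libraries labelled XG1 in red, AMO1 in blue, open circles for 100 nM and bars for group means. In AMO1 all 3 libraries at 1000 nM lie above all 3 DMSO libraries in each panel, and in the libraries labelled XG1 GDF15 alone of the 6 does so. The main rule for naming genes asked for no overlap in at least 1 line, so this is partly set by the choice of genes.

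Of 25 p53 targets listed, 20 were among the 8949 genes. The difference was below 0 for 17 of the 20, with a median of -0.57 beside -0.01 over the 8949 genes. It was called for 4 of them, all below 0, and 10 passed an unadjusted p of 0.05, all below 0. Over the 8949 genes these shares below 0 were 0.235% and 3.75%. In AMO1 10 of the 20 rose and 1 fell, with a median change of 0.47, and in the libraries labelled XG1 2 rose and 5 fell, with a median of -0.27. Over the 8949 genes 1.51% rose and 17.8% fell in AMO1, and 1.43% rose and 18.5% fell in the libraries labelled XG1. FDXR, a mitochondrial reductase, and SESN1, another sestrin, rose in AMO1 by 0.89 and 1.01 log2, with differences of -1.36 (limma adjusted p = 0.0548) and -1.02 (0.0696) that were not called. Among 24 alternatives FDXR passed in 9 and SESN1 in 3, median centring and quantile normalization among them. MDM2, the ligase that degrades p53, fell in both lines, by 0.79 log2 in AMO1 and 0.83 in the libraries labelled XG1. BTG2, an antiproliferative gene, rose in both. The 4 calls became 9 after median centring, 6 with a pseudocount of 5, 8 after quantile normalization, 3 with only the 12 libraries or with the replicate number as a block and 2 with no filter on low genes, all below 0, and the median lay between -0.60 and -0.53 under the 3 other scalings. In AMO1, DMSO replicate 3 was the lowest of its group for 18 of the 20, beside 73.1% of the 8949 genes. XG1 1000 nM replicate 2 was the lowest of its group for 16 of the 20, beside 70.3%. Without AMO1 DMSO replicate 3, 5 were called and the median was -0.48, and without XG1 1000 nM replicate 2, 4 and -0.61. The count was 2 without XG1 DMSO replicate 1, XG1 DMSO replicate 2 or AMO1 1000 nM replicate 2, and 3 to 5 without any 1 of the other libraries.

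CDKN1A, the p53 target that inhibits cell cycle kinases, differed in level between the lines before treatment, at 0.870, 0.615 and 0.751 FPKM in the libraries labelled XG1 and 263, 229 and 131 FPKM in AMO1 in DMSO. At 1000 nM it was at 0.284, 0.501 and 1.06 and at 249, 245 and 301 FPKM. The treated and DMSO libraries overlapped in both lines, and the difference of -0.54 log2 was not called (95% interval -1.25 to 0.16, limma adjusted p = 0.666). A pseudocount of 1 understates changes at values as low as those in the libraries labelled XG1, so the interval does not show a like response. The part of the CDKN1A levels before treatment in the differences above was not tested.

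**Figure D4:**
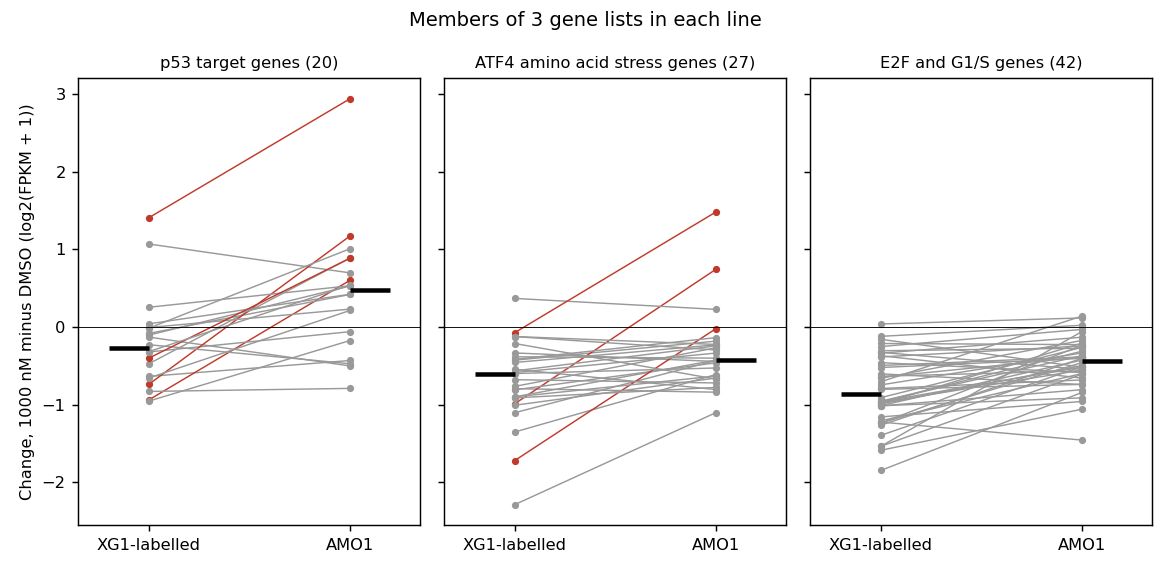
Change from DMSO to 1000 nM (log2(FPKM + 1)) in the libraries labelled XG1 (left of each panel) and in AMO1 (right) for the members of 3 gene lists, 1 line per gene, red where the difference was called, with black bars at the medians. p53 target medians lie at -0.27 and 0.47, ATF4 gene medians at -0.60 and -0.43, and E2F and G1/S gene medians at -0.86 and -0.44.

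More of the amino acid stress genes fell than rose in both lines, and the 3 with a called difference differed in the same direction as the p53 targets. Besides SESN2 these were DDIT4 and ATF3. DDIT4, also called REDD1, is another inhibitor of mTORC1. It fell in the libraries labelled XG1 from 63.4, 52.5 and 47.7 FPKM to 11.6, 14.9 and 22.3 FPKM, and in AMO1 it was at 252, 213 and 150.0 FPKM in DMSO and 161, 204 and 234 FPKM at 1000 nM. The AMO1 groups overlapped and the XG1 groups did not. The difference was -1.70 ± 0.31 log2 (limma adjusted p = 0.00955).

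ATF3 encodes a stress-induced transcription factor and was low throughout. AMO1 held 1.87, 1.64 and 1.99 FPKM in DMSO and 2.87, 4.13 and 4.37 FPKM at 1000 nM, without overlap. The libraries labelled XG1 held 3.42, 3.04 and 1.70 FPKM in DMSO and 0.327, 0.687 and 1.75 FPKM at 1000 nM, where 1 treated library lay above the lowest DMSO library. ATF3 was called higher in AMO1 (0.74, adjusted p = 0.0423) and lower in the libraries labelled XG1 (-0.99, 0.00898). The difference was -1.73 ± 0.35 log2 (limma adjusted p = 0.0194), called in 6 of the 12 fits without 1 library (highest adjusted p = 0.07). The call also ended with no filter and with a pseudocount of 0.1.

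Among 27 ATF4 pathway genes of the 8949, 17 fell and 0 rose in the libraries labelled XG1, where limma gave a median change of -0.60. In AMO1 10 fell and 2 rose, with a median of -0.43. Over the 8949 genes 18.5% fell and 1.43% rose in the libraries labelled XG1, and 17.8% fell and 1.51% rose in AMO1. The difference was called for 3 of the 27, all below 0 (0.235% over the 8949 genes). 6 passed an unadjusted p of 0.05, all below 0 (3.75% over the 8949 genes). The median difference of the 27 was -0.25, which became -0.05 without AMO1 DMSO replicate 3 and -0.09 without XG1 1000 nM replicate 2. CHAC1, a glutathione-degrading enzyme, fell in both lines, by 2.29 log2 in the libraries labelled XG1 and 1.10 in AMO1, a difference of -1.19 that was not called (95% interval -1.96 to -0.41, limma adjusted p = 0.177). DDIT3, the factor CHOP, fell by 1.10 and 0.43 log2, with a difference of -0.67 (95% interval -1.10 to -0.25, limma adjusted p = 0.149). ATF3 also stood in the list of immediate early genes and BBC3 in that of the BCL2 family, the single call in each.

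HIST2H2BE, a histone H2B gene, had the lowest difference of the 27. In AMO1 it rose from 5.07, 6.24 and 2.69 FPKM to 28.3, 34.5 and 39.7 FPKM. In the libraries labelled XG1 it was at 3.23, 3.16 and 2.97 FPKM in DMSO and 4.56, 3.99 and 5.00 FPKM at 1000 nM, without overlap but not called (0.42 log2, adjusted p = 0.182). The difference was -2.26 ± 0.30 log2 (limma adjusted p = 0.000805). Histone genes share sequence with near-identical copies, so the source of the reads is uncertain. Which forms of histone RNA the 3′ end method captured was not tested. Of 21 replication-dependent histone genes among the 8949 it was the only one called, and the median difference of the list was 0.06.

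The other rises in AMO1 without a call in the libraries labelled XG1 were HES6, ZNF580, TMEM129 and LOC646626. HES6, a helix-loop-helix factor of the Hairy family, went from 7.55, 8.43 and 4.84 FPKM to 15.4, 16.2 and 22.1 FPKM in AMO1 and stood at 76.3, 86.2 and 69.5 and 60.1, 61.3 and 70.1 FPKM in the libraries labelled XG1 (difference -1.53 ± 0.25 log2, limma adjusted p = 0.00473). ZNF580, a zinc finger gene, went from 9.02, 7.07 and 5.83 to 28.8, 31.8 and 33.4 FPKM in AMO1, while the libraries labelled XG1 spread from 14.3 to 21.9 FPKM in DMSO and 15.03 to 34.2 FPKM at 1000 nM (-1.66 ± 0.33, 0.0194). It was called in 6 of the 12 fits without 1 library and not with no filter. TMEM129, a ubiquitin ligase of the endoplasmic reticulum, went from 10.9, 12.5 and 5.85 to 29.3, 33.1 and 30.4 FPKM in AMO1 (-1.39, 0.0194), and the uncharacterised LOC646626 from 1.27, 0.483 and 2.07 to 5.44, 3.76 and 6.15 FPKM (-1.99, 0.00763). The TMEM129 call held in 9 of the 12 fits without 1 library and ended with no filter and with only the 12 libraries. In the libraries labelled XG1 the treated and DMSO groups of these 4 genes overlapped.

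IER5L and C11orf96 completed the genes that rose in AMO1 and fell in the libraries labelled XG1. IER5L, a gene of the immediate early IER family, was at 3.61, 5.66 and 4.72 FPKM in AMO1 DMSO and 10.3, 10.9 and 10.8 FPKM at 1000 nM, and at 2.31, 1.69 and 1.86 and 1.23, 0.428 and 0.934 FPKM in the libraries labelled XG1. Neither pair overlapped (difference -1.74 ± 0.26 log2, limma adjusted p = 0.0014). C11orf96 was at 1.85 ± 0.452 and 3.43 ± 1.05 FPKM in AMO1 and at 3.55 ± 0.244 and 1.59 ± 0.357 FPKM in the libraries labelled XG1 (mean ± SD, n = 3). Its difference was -1.44 ± 0.29 log2 (limma adjusted p = 0.0194), called in 8 of the 12 fits without 1 library.

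7 further genes, beside DDIT4, fell in the libraries labelled XG1 and were not called in AMO1. ZFP36L2, an RNA-binding protein that promotes decay of AU-rich transcripts, fell from 80.1, 70.00 and 54.01 FPKM to 21.8, 15.3 and 18.8 FPKM and in AMO1 stood at 41.7, 45.6 and 52.2 and 32.1, 30.9 and 35.7 FPKM (difference -1.33 ± 0.25 log2, limma adjusted p = 0.0118). TSC22D1, a leucine zipper protein induced by TGF-beta, fell from 112, 106 and 84.03 FPKM to 36.4, 28.4 and 44.4 FPKM, and in AMO1, where it was far lower, stood at 4.82, 3.07 and 3.29 and 3.16, 3.35 and 4.20 FPKM (-1.42 ± 0.26, 0.0107). RGS16, which switches off G protein signals, was lower in the libraries labelled XG1 than in AMO1. It fell from 3.39, 3.40 and 2.51 to 1.31, 0.687 and 0.836 FPKM and in AMO1 stood at 53.1, 55.1 and 44.6 and 64.04, 59.99 and 68.9 FPKM (-1.42 ± 0.26, 0.0101). These 3 calls held in every alternative tried.

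The remaining 4 of this class were near the threshold. SLCO4A1, an organic anion transporter, fell from 7.65 ± 0.337 to 2.26 ± 0.356 FPKM in the libraries labelled XG1 (difference -1.24 log2, limma adjusted p = 0.0499), and ITPKA, an inositol phosphate kinase, from 8.08 ± 1.24 to 3.35 ± 0.775 FPKM (-1.21, 0.0481). MALAT1, a nuclear noncoding RNA, fell from 230.1 ± 10.4 to 159 ± 6.24 FPKM (-1.01, 0.0481), and CENPU, a centromere protein gene, from 19.6 ± 0.762 to 12.8 ± 1.58 FPKM (-0.96, 0.0481). Of the 12 fits without 1 library, 1 kept the call for SLCO4A1 and 2 for each of the others. All 4 calls also ended with the replicate number as a block, with only the 12 libraries, with only the 8949 genes tested, with no filter and with a pseudocount of 0.1. Their AMO1 means went from 79.1 to 68.6, 1.38 to 1.62, 53.4 to 73.4 and 7.75 to 10.2 FPKM in the same order.

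6 genes had a difference above 0. SPTBN1, a beta spectrin of the membrane skeleton, fell in AMO1 from 10.1, 11.03 and 7.99 FPKM to 2.08, 1.85 and 2.28 FPKM. In the libraries labelled XG1 it was at 8.84, 7.22 and 6.53 FPKM in DMSO and 6.85, 6.18 and 7.91 FPKM at 1000 nM, with overlap. The lines started at like levels, and the difference was 1.70 ± 0.25 log2 (limma adjusted p = 0.0014). ATAD3B, a mitochondrial ATPase, fell in AMO1 from 47.3, 54.6 and 41.00 to 21.1, 22.1 and 28.8 FPKM and rose in the libraries labelled XG1 from 12.5, 12.6 and 8.02 to 17.9, 15.4 and 15.5 FPKM (1.51 ± 0.25, 0.00501). Neither pair overlapped, though reads of ATAD3B may be shared with its near copy ATAD3A. RCSD1, which binds an actin capping protein, moved the same way by less, from 71.6 ± 8.48 to 50.2 ± 5.23 FPKM in AMO1 and from 27.04 ± 2.21 to 37.5 ± 4.71 FPKM in the libraries labelled XG1 (0.95, 0.0358), and was called in 2 of the 12 fits without 1 library and neither with the replicate number as a block nor with only the 12 libraries.

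TNFRSF8, the receptor CD30, and DDN, dendrin, fell in both lines, but in the libraries labelled XG1 they started just above the limit of 1 FPKM. TNFRSF8 went from 12.5, 12.3 and 8.72 to 2.35, 2.38 and 2.62 FPKM in AMO1 and from 1.51, 1.14 and 0.566 to 0.402, 0.313 and 0.227 FPKM in the libraries labelled XG1 (difference 1.17 log2, limma adjusted p = 0.0411). DDN went from 13.6, 13.8 and 10.7 to 3.14, 2.59 and 3.07 and from 1.32, 1.46 and 1.10 to 0.952, 0.253 and 0.425 FPKM (1.201, 0.0207). Both calls ended with a pseudocount of 0.1 and with only the 12 libraries, and that of TNFRSF8 also with no filter, with only the 8949 genes tested and with the replicate number as a block. Of the 12 fits without 1 library, 3 kept the call for TNFRSF8 and 7 for DDN. With LOC646626 these were the called genes nearest to the limit from above, at DMSO means of 1.07, 1.29 and 1.04 FPKM in the libraries labelled XG1. Nearest from below were CLEC2D (0.858) and OLMALINC (0.776) there and KLF1 (0.840) in AMO1. SNORA12, a small nucleolar RNA, rose in the libraries labelled XG1 from 7035, 5723 and 5083 to 18421, 20731 and 15474 FPKM and was at 15965, 13408 and 11515 and 16262, 17785 and 18445 FPKM in AMO1 (1.25 ± 0.22, 0.0066). For so short an RNA, FPKM is high per read, and whether the reads came from the mature RNA was not tested.

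Of the replication and cell cycle genes many fell in the libraries labelled XG1 and fewer were called in AMO1, and none of those listed had a called difference. Of 42 E2F and G1/S genes, 30 fell in the libraries labelled XG1 (median -0.86) and 17 in AMO1 (median -0.44), and 0 rose in either. Over the 8949 genes 18.5% and 17.8% fell. In limma 0 of the 42 differences were called, also 0 without trend and robust estimation. At an unadjusted p of 0.05, 14 passed, all below 0 (3.75% over the 8949 genes). The median difference was -0.24, with 35 of 42 below 0. Without AMO1 DMSO replicate 3, 28 were below 0 and the median was -0.14, while 2 were called. Without XG1 1000 nM replicate 2, 31 were below 0, the median was -0.18 and 0 were called. After median centring and after quantile normalization 4 were called, and with a floor of 1 FPKM or without XG1 1000 nM replicate 3, 1 was, all of them below 0. RRM2, the ribonucleotide reductase subunit that supplies DNA precursors, fell from 37.2, 37.4 and 34.8 to 14.5, 14.2 and 15.8 FPKM in the libraries labelled XG1 and from 202, 201 and 148 to 119.9, 134 and 143 FPKM in AMO1 (difference -0.78, 95% interval -1.19 to -0.38, limma adjusted p = 0.0696). It passed in 4 of 24 alternatives, among them the fit without AMO1 DMSO replicate 3, in which PCNA passed too. PCNA, the DNA polymerase clamp, fell by 1.85 and 0.84 log2 (-1.005, -1.60 to -0.41, 0.113). Among 26 DNA repair genes 0 differences were called in limma with or without trend. 3 passed an unadjusted p of 0.05, all below 0 (3.75% over the 8949 genes), and 23 of the 26 differences lay below 0. Their median of -0.24 became -0.14 without XG1 1000 nM replicate 2, with 18 below 0. Among 31 G2/M genes the counts were 0 called and 0 at an unadjusted p of 0.05, with a median of -0.01 and 16 below 0. Without XG1 1000 nM replicate 2 the G2/M median was 0.08, with 10 below 0.

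For CDK7, its partners and the other fixed genes the difference was not called. CDK7 fell in both lines, by 0.79 log2 in the libraries labelled XG1 and 0.63 in AMO1, a difference of -0.16 (95% interval -0.75 to 0.42, limma adjusted p = 0.919). MYC, a transcription factor of cell growth activated in many myelomas, fell by 1.84 and 1.59 log2, a difference of -0.24 (95% interval -1.10 to 0.62, adjusted p = 0.917). The partners of CDK7 gave -0.14 for CCNH (95% interval -0.99 to 0.70) and -0.37 for MNAT1 (95% interval -1.12 to 0.39). E2F1, the cell cycle factor, gave -1.003 (-1.73 to -0.28), MCL1, a survival protein of plasma cells, 0.15 (-0.29 to 0.59), and ABCB1, a drug efflux pump, 0.20 (-0.39 to 0.78). ABCB1 averaged under 5 FPKM in every group and under 1 FPKM in DMSO of at least 1 line. A pseudocount of 1 understates changes at such levels, so its interval does not show a like response. IRF4, a factor on which myeloma cells depend, fell in AMO1 from 31.6, 32.6 and 34.2 to 18.6, 20.7 and 21.5 FPKM and was at 0.148, 0.142 and 0.221 and 0.241, 0.341 and 0.283 FPKM in the libraries labelled XG1. Its difference of 0.81 log2 had a 95% interval of 0.36 to 1.26 (limma adjusted p = 0.093), and passed with a pseudocount of 5 (0.61, adjusted p = 0.0404) and without trend and robust estimation (0.81, 0.0456). With IRF4 under 1 FPKM in all libraries labelled XG1, this difference mostly restates the fall in AMO1.

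Genes under 1 FPKM in DMSO of one line or both gave 56 of the 83 calls, which is 1.72% of the 3255 such genes tested. For 45 of the 56, one line was under 1 FPKM in all 6 libraries, so the difference restates the response of the other line. Of the 34 differences above 0, 29 fell in AMO1 and were not called in the libraries labelled XG1. Of the 22 below 0, 19 fell in the libraries labelled XG1 and were not called in AMO1. Over all 12204 genes 1.9% rose and 15.7% fell in the libraries labelled XG1, and 1.78% rose and 15.4% fell in AMO1. No fold is given for the silent line.

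CIITA and ZBTB32 fell in AMO1 and were under 1 FPKM throughout the libraries labelled XG1. CIITA, the coactivator that switches on MHC class II genes, fell from 26.2, 30.3 and 20.7 FPKM to 5.61, 5.83 and 5.66 FPKM and was at 0.0881 to 0.139 FPKM in DMSO of the libraries labelled XG1 (difference 1.95 ± 0.22 log2, limma adjusted p = 0.000118). ZBTB32, a zinc finger repressor of lymphocytes, fell from 37.4, 36.8 and 28.7 to 5.48, 5.95 and 4.91 FPKM (2.43 ± 0.24, 2.51e-05). CIITA was the single call among 12 MHC class II genes, of which 0 reached 1 FPKM in DMSO of both lines. HLA-DRA, a class II chain, was at 437, 476 and 359 FPKM in AMO1 DMSO and 411, 375 and 427 FPKM at 1000 nM, with overlap. CCDC107 had the highest difference, 2.88 ± 0.56 log2 (limma adjusted p = 0.025), from 41.8, 45.7 and 17.97 to 14.7, 14.8 and 15.03 FPKM in AMO1 and 0.120, 0.818 and 1.31 to 6.10, 4.69 and 3.87 FPKM in the libraries labelled XG1, and was called in 3 of the 12 fits without 1 library.

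KLF1, HEMGN and GBGT1 fell in the libraries labelled XG1 and had a mean under 1 FPKM in AMO1 DMSO. KLF1 was the single call among 14 listed erythroid genes outside the 8949, and 0 of the 9 listed plasma cell genes there were called. KLF1, the erythroid transcription factor, fell from 54.8, 59.5 and 56.1 FPKM to 15.3, 11.7 and 16.2 FPKM and was at 0.796 to 0.900 FPKM in AMO1 DMSO (difference -1.72 ± 0.29 log2, limma adjusted p = 0.00598). HEMGN, hemogen, a nuclear protein of blood cell precursors, fell from 17.9, 11.8 and 11.9 to 3.77, 1.87 and 2.67 FPKM (-1.99 ± 0.29, 0.0014), and GBGT1, a glycosyltransferase of the globoside series, from 11.2, 11.8 and 8.03 to 1.74, 1.15 and 1.16 FPKM (-2.19 ± 0.26, 0.00017). SLC40A1, the iron exporter ferroportin, named with KLF1 after its values were seen, fell from 10.4, 7.68 and 5.12 to 2.30, 1.503 and 3.25 FPKM (-1.31, 0.0358). Its call held in 3 of the 12 fits without 1 library and ended with the replicate number as a block, with only the 12 libraries, with no filter and with a pseudocount of 0.1. SAPCD1 had the lowest difference, -2.64 ± 0.55 (0.0411), called in 1 of the 12 fits without 1 library and neither with the block nor with no filter. With a pseudocount of 0.1 the calls of KLF1, HEMGN, PYCARD-AS1, SAPCD1 and CCDC107 ended. PYCARD-AS1 fell from 32.8, 25.9 and 22.8 to 6.39, 10.3 and 7.96 FPKM (-2.34 ± 0.36, 0.00193), and since the use of strand in counting is not stated its reads cannot be told apart from those of PYCARD.

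**Figure D5:**
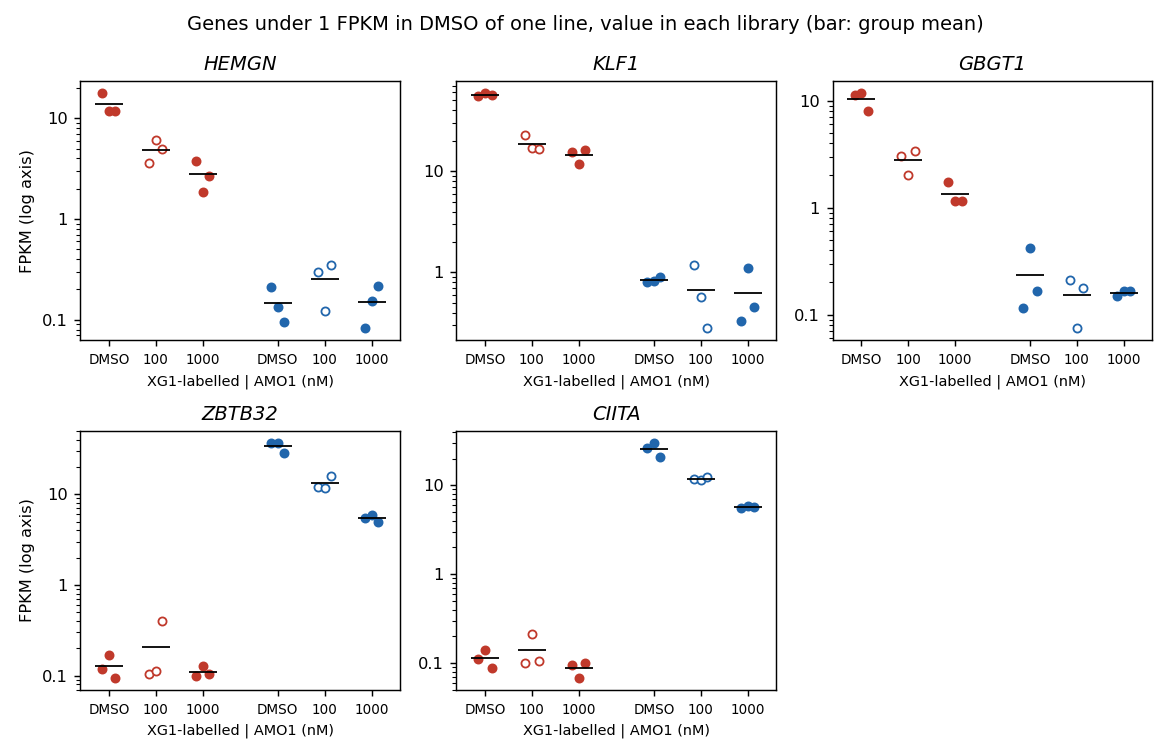
FPKM in each library (log axes, each panel with its own range) for 5 called genes under 1 FPKM in DMSO of one line, with libraries labelled XG1 in red, AMO1 in blue, open circles for 100 nM and bars for group means. The top row falls with treatment in the libraries labelled XG1 and the bottom row in AMO1, while the other line stays at or below the 1.18 FPKM of KLF1 in 1 AMO1 library.

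At 100 nM, which shares the DMSO libraries and is therefore set side by side only, the differences of the genes above had the values that follow. SESN2 gave -0.88 log2 (limma adjusted p = 0.157), GADD45A -0.68 (0.629), GDF15 -0.72 (0.428), BBC3 -0.998 (0.165) and DDIT4 -1.28 (0.117). None of these 5 was called at that dose. ATAD3B gave 1.29 (0.0483), SPTBN1 1.18 (0.0607), CIITA 1.08 (0.0486) and HEMGN -1.47 (0.0483), and of these ATAD3B, CIITA and HEMGN were called. At 100 nM 19 of the 12204 genes were called.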

How the data were processed

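Per the labels' protocols, cells were lysed in TRIzol, RNA was purified on Zymo columns and QuantSeq 3′ libraries were made. HISAT2, Cuffnorm and the build hg19 are named in the submitters' processing notes. The sources used here give no versions, annotation or strand setting. The values the authors deposited are taken as FPKM, a unit inferred from Cuffnorm, since per the file headers they are only expression. They are not counts, so depth is unknown and no count model was used. FPKM divides by length, which does not set read number in 3′ libraries, so levels of different genes are not compared.

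Genes averaging 1 FPKM or more in any of the 6 groups were fitted on the log2(FPKM + 1) scale in limma (version 3.58.1, with statmod 1.5.0 under R 4.3.3), using its trend and robust options. The fit held a term for each group and used all 18 libraries, two-sided, with Benjamini-Hochberg adjustment over 12204 genes and a threshold of 0.05. A pseudocount of 1 understates changes of low genes. The fit was checked on simulated data. The members, gene lists and alternatives were chosen with earlier results of these data known. Named genes were, at 1 FPKM or more in DMSO of both lines, the 12 highest and 12 lowest called differences with non-overlapping groups in a line, opposite calls and up to 2 per list and direction. Elsewhere the 4 highest and 4 lowest were named, 1 of which is not reported here, and 9 fixed genes (ABCB1, CCNH, CDK7, CDKN1A, E2F1, IRF4, MCL1, MNAT1, MYC). The other called genes of the 27 were named to account for all of them, and further genes after their values were seen. ERCC spike-ins (92) were left out of the test. No column of values was unused. Promoter windows came from RefSeq (GRCh38.p14).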

Additional observations from a re-analysis of the deposited data

Results flagged for a closer look

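Each result here is a gene whose difference between the 2 lines' responses passed the limma test of that difference itself, with n = 3 libraries per group. Values are log2 differences, libraries labelled XG1 minus AMO1. Stress and growth control genes gave GADD45A -1.91, ATF3 -1.73, DDIT4 -1.7, SESN2 -1.56, BBC3 -1.54, GDF15 -1.53 and TP53INP1 -1.29. Further genes below 0 at 1 FPKM or more in DMSO of both lines were HIST2H2BE -2.26, IER5L -1.74, ZNF580 -1.66, HES6 -1.53, TSC22D1 -1.42, RGS16 -1.42, TMEM129 -1.39, ZFP36L2 -1.33, SLCO4A1 -1.24, ITPKA -1.21, MALAT1 -1.01 and CENPU -0.96. Above 0 were SPTBN1 1.7, ATAD3B 1.51, DDN 1.2, TNFRSF8 1.17 and RCSD1 0.95. Among genes under 1 FPKM in DMSO of a line, the values were SAPCD1 -2.64, PYCARD-AS1 -2.34, GBGT1 -2.19, HEMGN -1.99, CIITA 1.95, ZBTB32 2.43 and CCDC107 2.88.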

How the results depend on the processing

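Of the 83 called differences, 0 changed sign in the 24 alternatives tried. Counts of calls (83 over all genes, 27 at 1 FPKM or more in DMSO of both lines, 6 with opposite calls) moved as follows. The total was 27 with a pseudocount of 0.1, 201 with 5, 146 with a floor of 1 FPKM, 191 after median centring, 216 after quantile normalization, 54 with only the 12 libraries and 20 with only the 8949 genes tested. The 27 became 59 with a pseudocount of 5, 16 with no filter on low genes, 90 after median centring, 110 after quantile normalization and, chosen after seeing the data, 16 of those at 5 FPKM or more in DMSO of both lines. The 6 became 1 with no filter, 11 after median centring, 14 after quantile normalization and 2 with only the 12 libraries. Leaving out 1 library gave 42 to 165 calls in all, 16 to 66 of the subset and 1 to 9 opposite. The highest counts came without AMO1 DMSO replicate 3. Without 1 library CCNH lay between -0.39 and 0.22, MNAT1 between -0.61 and 0.019 and MYC between -0.57 and 0.064, none of them called. They turned positive without XG1 1000 nM replicate 2, and CCNH also without AMO1 1000 nM replicate 3 (0.035). MDM2, not called in any alternative, turned positive with a pseudocount of 5 (0.17) and lay between -0.17 and 0.13 without 1 library.

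The replicate numbers were not taken as pairs, since no label says so and 7 of 18 same-number pairs of libraries, not all, correlated over 0.1 (-0.34 to 0.21). As a hint of pairing from the data, 8 of 12 libraries correlated best with their own number. With the replicate block 57 differences were called in place of 83, 29 above and 28 below 0, 20 of them in the subset, and 3 opposite. Depth is unknown, so no detection limit could be set, and values near 0.1 FPKM carry no fold.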

Other observations

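Lists of other gene groups held few called differences. Of 25 lists with members at 1 FPKM or more in DMSO of both lines, 20 had no called difference. Only 0.302% of the 8949 genes were called, so short lists would seldom hold a call, and the count does not show like responses. Of 33 MYC target and ribosome assembly genes 18 fell in the libraries labelled XG1 (median -0.54), beside 18.5% of the 8949 genes. In AMO1 23 fell (median -0.70), beside 17.8% of the 8949 genes. The limma test called 0 of the 33 differences, also 0 without trend. 2 passed an unadjusted p of 0.05, both above 0 (3.05% over the 8949 genes). Of the 33 differences 24 lay above 0 and 9 below. Small nucleolar RNA host genes fell in both lines, 12 and 11 of 18, beside 18.5% and 17.8% of the 8949 genes. For them 0 differences were called by either fit and 0 passed an unadjusted p of 0.05. Of 40 ribosomal protein genes 0 were called as changed in either line, with a median difference of -0.11.

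Immediate early genes were mixed. EGR1, an early response transcription factor named after its values were seen, was at 19.3, 18.95 and 15.5 FPKM in DMSO and 79.9, 60.9 and 69.8 FPKM at 1000 nM in the libraries labelled XG1. In AMO1 it was at 3.61, 3.32 and 1.67 and 3.54, 3.03 and 5.83 FPKM. Its difference of 1.499 log2 was not called (95% interval 0.77 to 2.23, limma adjusted p = 0.0519). It passed in 7 of 24 alternatives, namely a pseudocount of 5, genes with a mean of 5 FPKM or more in a group, median centring, quantile normalization, spike-in scaling and the fits without AMO1 DMSO replicate 3 or AMO1 1000 nM replicate 3. KLF2, a lymphocyte quiescence factor, fell in both lines, by 0.57 log2 in the libraries labelled XG1 and 1.70 in AMO1, a difference of 1.13 (95% interval 0.55 to 1.71, adjusted p = 0.066). KLF2 passed with a pseudocount of 5 and without XG1 1000 nM replicate 2.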
